A study of Prunus persica with 84 samples.

Results

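Floral buds of 2 peach (Prunus persica) genotypes were compared after 100 h of chilling, with 3 libraries of LP against 3 libraries of JB. These 6 libraries were chosen by the genotype, treatment and time in their labels, out of 84 libraries in 28 groups of 3 in the whole series. JB is the genotype John Boy, and LP, so written in the sample titles, is KV021779. Both groups came from cut shoots that carried floral buds, stood with their base in water and had been held at 4 °C for 100 h. The series compares RNA profiles of genotypes that differ in flowering time. Buds were sampled at 0, 100, 200, 400, 600, 800 and 1000 h of chilling and then at 22 °C, up to 20 d in JB and 28 d in LP, when each started to bloom. No shoots were sampled at 100 h without chilling, so cold cannot be told apart from time spent on cut shoots. Each genotype is the only one of its flowering time here, so any other difference between the 2 cannot be told apart from flowering time. Whether the 3 replicates of a group are separate trees is not in the labels. The p-values therefore measure how these libraries vary, and that variation may be technical.

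Peach flower buds form in summer and stay dormant through winter, and they open in warmth only after a long enough exposure to cold. The dormancy-associated MADS-box genes, DAM1 to DAM6, are a tandem cluster of transcription factor genes tied to bud dormancy in peach, and their RNA falls over long chilling. Genes of the APETALA2 (AP2) family also encode transcription factors, and in Arabidopsis several of its members delay flowering and take part in floral organ identity. The series title names a peach gene of the euAP2 branch of this family. Knowledge of the study, and not the count table, ties that gene to PRUPE_6G242400. Apart from the DAM genes, the count table holds identifiers with no names, so at most 2 higher and 2 lower identifiers are given per comparison, with no role.

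The JB libraries of 100 h held 8021919, 13023928 and 18974783 counts, and the LP libraries 11846751, 14605810 and 15105665, within the series range of 8021919 to 26346177. Levels are given as CPM, the deposited counts divided by the scaled total of their library, and are not corrected for gene length. Of 26879 genes in the table, 21168 had enough counts to be tested. Across genes, log2 CPM of libraries of the same genotype correlated with Pearson r from 0.993 to 0.997, and that of libraries of different genotypes from 0.961 to 0.969. In these correlations no library stood far from its group. With unscaled library totals, no pair was the same within sampling noise, with a chi-square per degree of freedom of 2.81 to 7.27 within genotypes. These values therefore also take in differences in scaling between libraries. By this measure JB replicate 2 was the JB library least like its group. It stood at 6.25 and 7.27 to JB replicates 1 and 3, which were at 2.93 to each other. In LP, replicates 1 and 3 were furthest apart, at 6.92. The scaling factors of replicates 1, 2 and 3 were 0.96, 0.87 and 0.94 in JB and 0.886, 0.909 and 0.94 in LP. All 6 libraries held DAM4, DAM5 and DAM6 RNA, which buds express. Other marker genes of the bud or of its tissues could not be looked up by name, so the labelled tissue was not checked beyond this. In bulk samples such as these, fewer cells of a type and less RNA per cell cannot be told apart.

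Most of the larger differences at 100 h were genes with less RNA in LP. At an adjusted p under 0.05 in edgeR's quasi-likelihood test, 4605 of the tested genes were higher in LP (21.8%) and 4210 were lower (19.9%), together 41.6%. Among genes that were also at least 2-fold apart, 673 were higher in LP (3.18%) and 1681 were lower (7.94%), or 2.498 lower genes for each higher one. At 0 h the same ratio was 1.26, from 1206 lower (5.7%) and 960 higher genes (4.54%), and at 200 h it was 2.25, from 2169 lower (10.2%) and 964 higher (4.55%). The median log2 difference over all tested genes was 0.02 at 100 h.

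The balance over all calls depended on the scaling, while that of the 2-fold genes did not turn in any setting tried. With DESeq2 size factors 4272 genes were higher and 4350 lower, with the DESeq2 test 4274 and 4346, and in the fit of the 6 libraries alone 3326 and 4083. Without replicate 2 of every group, 2724 were higher and 2860 lower, and without replicate 1 there were 3635 and 4016. When the third library of JB at 12 d and that of LP at 28 d were left out, which lie outside the comparison but share its estimate of spread, there were 4479 and 4634. Tested against a 2-fold minimum in edgeR's glmTreat, 308 genes were higher and 926 lower, which again left more genes on the lower side.

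**Figure D1:**
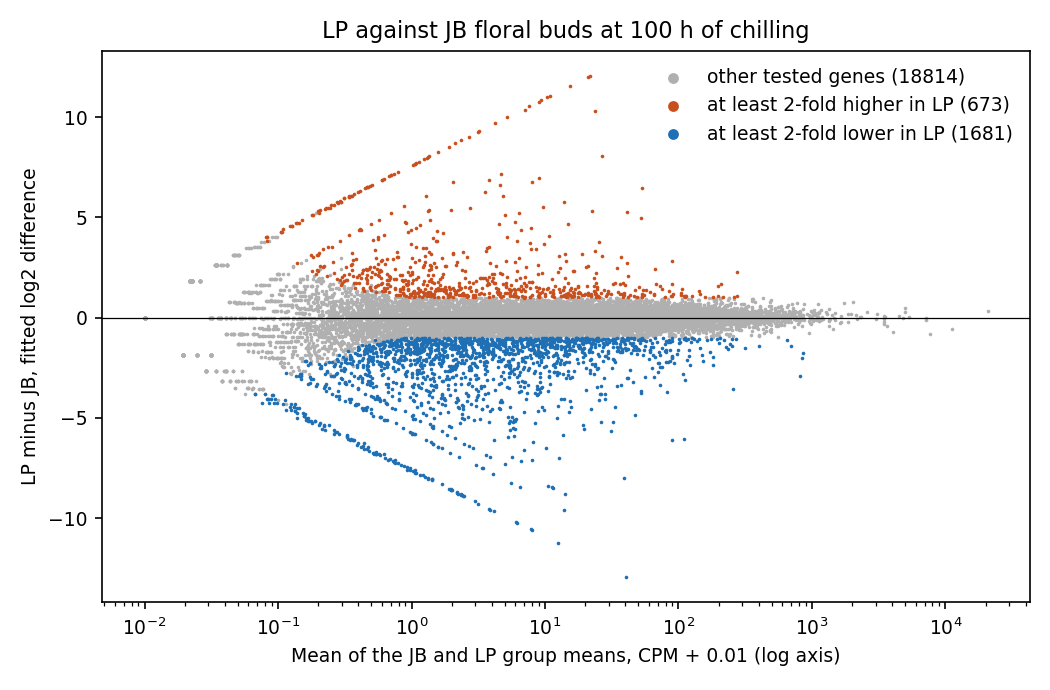
Each point is a tested gene, placed by the mean of the JB and LP group means at 100 h (CPM + 0.01, log axis) and by the fitted LP minus JB difference (log2). The 673 genes at least 2-fold higher in LP (orange) and 1681 at least 2-fold lower (blue) lie mostly at low and middle levels, and the slanted lines at the edges are genes with hardly any count in a genotype, whose fitted difference depends on the small value added to counts.

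The genes lower in LP took a larger share of the counts in JB than the genes higher in LP took in LP. The 1681 lower genes took 3.56% ± 0.08 of the counts in JB and 1.08% ± 0.01 in LP (SD, n = 3). The 673 higher genes took 0.407% ± 0.013 in JB and 1.15% ± 0.02 in LP. The median lower gene stood at 4.38 CPM in JB and 0.842 CPM in LP, and the median higher gene at 0.751 CPM in JB and 3.18 CPM in LP. These shares describe lists chosen by the same libraries and carry no test.

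Sizes spread widely in both directions. Of the lower genes 856 were 2- to 4-fold, 343 were 4- to 8-fold and 482 were more than 8-fold apart, and of the higher genes 383, 114 and 176. Genes with few counts held the largest part. Among the 3236 tested genes with a mean of 1 to 5 CPM, 18.5% were at least 2-fold lower and 6.71% at least 2-fold higher in LP. Among the 2315 genes at 100 CPM or more, 1.94% were lower and 0.821% higher. Lower genes outnumbered higher ones in each of the 5 level classes examined.

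PRUPE_6G242400, the euAP2 gene of the title, was higher in LP at 100 h. The 3 JB libraries held 34.4, 32.3 and 44.7 CPM, and the 3 LP libraries 60.9, 61.5 and 57.6 CPM. All LP libraries lay above all JB libraries, a lack of overlap found in 47.25% of tested genes. JB replicate 3 stood above the other JB libraries. The fitted log2 difference was 0.67 ± 0.10 (SE; edgeR, adjusted p = 1.9e-08), and it ran from 0.56 to 0.87 when replicates or single libraries were left out.

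No difference of PRUPE_6G242400 was detectable before chilling. At 0 h the JB libraries held 33.8, 34.9 and 35.4 CPM and the LP libraries 35.3, 36.4 and 33.3 CPM, which overlap, with a difference of 0.01 ± 0.10 (adjusted p = 0.969). From 0 to 100 h the level rose in LP by 0.78 ± 0.10 (adjusted p = 2.1e-10), while the change in JB of 0.12 ± 0.10 did not pass the test (adjusted p = 0.365). The test of the difference between these changes gave 0.66 ± 0.14 (adjusted p = 0.00029). Without replicate 2 of every group it was 0.57 and did not pass (adjusted p = 0.0922). Set against the mean of the other 6 chilling times, the LP minus JB difference at 100 h was 0.00 ± 0.10 (adjusted p = 1). That mean takes in 0.01 at 0 h and 1.21 at 200 h.

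Of the 6 DAM genes, all passed the filter on low counts, and 1 was called at 100 h against the background of 21.8% higher and 19.9% lower. Their median log2 difference was 0.08, against 0.02 over all tested genes. PRUPE_DAM4 was the called gene, with 594, 663 and 644 CPM in JB and 873, 840 and 744 CPM in LP. Every LP library was above every JB library, a lack of overlap found in 47.25% of tested genes. The fitted difference was 0.37 ± 0.09 (adjusted p = 0.00045). Without replicate 1 of every group the value was 0.26 and did not pass (adjusted p = 0.0673).

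The higher level of PRUPE_DAM4 in LP was already there at 0 h, at 0.42 ± 0.09 (adjusted p = 8.2e-05). The change from 0 to 100 h did not differ detectably between genotypes (-0.05 ± 0.13, adjusted p = 0.901). PRUPE_DAM4 rose in both, by 0.32 ± 0.09 in JB (adjusted p = 0.002) and by 0.27 ± 0.09 in LP (adjusted p = 0.0088).

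PRUPE_DAM5 held 92.9, 83.2 and 65.9 CPM in JB and 91.1, 108 and 109 CPM in LP. The ranges met, since LP replicate 1 lay just under JB replicate 1, and the difference of 0.36 ± 0.20 did not pass (adjusted p = 0.146). In the fit of the 6 libraries alone it passed, at 0.32 (adjusted p = 0.0216). PRUPE_DAM6 held 151, 137 and 103 CPM in JB and 151, 127 and 149 CPM in LP, and the groups overlapped (0.14 ± 0.20, adjusted p = 0.628).

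The other DAM genes had low counts. PRUPE_DAM1 held 2.73, 2.12 and 2.30 CPM in JB and 1.62, 1.58 and 1.55 CPM in LP. These groups did not overlap, as was so for 47.25% of tested genes, and the difference of -0.56 ± 0.34 did not pass the test (adjusted p = 0.177). PRUPE_DAM3 held 4.99 to 8.47 CPM in JB and 6.58 to 7.08 CPM in LP, and PRUPE_DAM2 stood between 0.0882 and 0.505 CPM in all 6 libraries. Without JB replicate 3 of 100 h the sign of the difference turned for PRUPE_DAM2 (from -0.46 to 0.93), PRUPE_DAM3 (from 0.02 to -0.22) and PRUPE_DAM6 (from 0.14 to -0.01), none of which passed the test either way. The DAM genes are close copies of each other, and reads shared between copies cannot be traced in the counts, so each single value is uncertain. For the 6 genes the test of the difference between the 0 to 100 h changes gave -0.40 to 0.34, with adjusted p-values from 0.531 to 0.995.

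**Figure D2:**
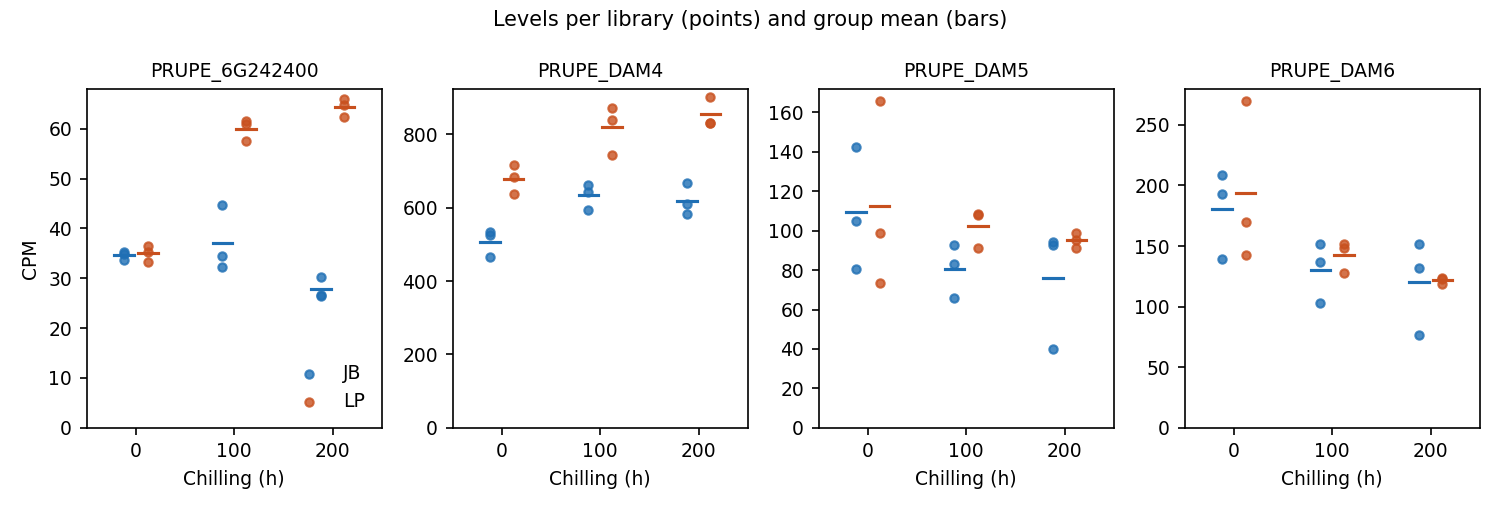
Points are single libraries and bars are group means (CPM, axes from 0) of the euAP2 gene and 3 DAM genes at 0, 100 and 200 h of chilling, with JB in blue and LP in orange. PRUPE_6G242400 is level between genotypes at 0 h and apart at 100 h, PRUPE_DAM4 is higher in LP at 0 and 100 h, and PRUPE_DAM5 and PRUPE_DAM6 overlap at 100 h.

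The largest differences with RNA in both genotypes were named by a rule on size and replicate overlap. PRUPE_8G034200 held 1.43, 1.06 and 1.12 CPM in JB and 120, 101 and 94.1 CPM in LP, a log2 difference of 6.48 ± 0.18 (adjusted p = 2.1e-42). PRUPE_5G199500 held 1.17, 0.794 and 1.29 CPM in JB and 42.5, 45.7 and 43.5 CPM in LP (5.29 ± 0.14, adjusted p = 3.4e-44). In both genes the lowest LP library stood far above the highest JB library. Both differences were also present in the 0 h libraries, at 7.82 ± 0.21 and 5.46 ± 0.15.

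On the lower side, PRUPE_1G152100 held 161, 191 and 177 CPM in JB and 3.15, 2.49 and 2.18 CPM in LP, a difference of -6.10 ± 0.18 (adjusted p = 1.8e-41). PRUPE_2G045300 held 193, 246 and 213 CPM in JB and 3.53, 4.22 and 2.18 CPM in LP (-6.05 ± 0.13, adjusted p = 1.5e-48). These genes had come to a like difference from opposite sides. PRUPE_1G152100 was 0.73 ± 0.12 higher in LP at 0 h (adjusted p = 3.8e-07), while PRUPE_2G045300 gave -9.60 ± 0.18 there (adjusted p = 1.0e-52).

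Some genes were close to absent in a genotype at 100 h. With at most 3 counts over the 3 libraries of a genotype and a mean of at least 1 CPM in the other, 58 called genes were near absent in JB and 137 in LP. No count at all was found for 35 of the 58 and for 61 of the 137. The median level in the genotype that held the RNA was 2.62 CPM in LP and 2.51 CPM in JB. A count of 0 over the 3 libraries allows up to 0.0814 CPM in JB and 0.0790 CPM in LP, for counting error only.

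Near absence at 100 h was compared with the 18 other chilling libraries of the same genotype. Of the 58 genes, 50 had a mean under 0.1 CPM in the other JB libraries, and none reached 1 CPM. Of the 137 genes, 94 had a mean under 0.1 CPM in the other LP libraries and 3 reached 1 CPM. At 0 h, 58 of the 58 and 79 of the 137 were called in the same direction, with no fold minimum (backgrounds 22.0% higher and 20.9% lower). The genes near absent in JB were thus called in JB and LP libraries of 0 h as well, and 58 of the 137 near absent in LP were not.

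PRUPE_8G080600 had no count in JB and 41.2, 45.0 and 45.2 CPM in LP, at least 538-fold higher in LP against the floor of 3 counts over the group. PRUPE_3G012600 had 1 count in JB and 49.1, 51.7 and 41.2 CPM in LP, a ratio of 1745 with an exact Poisson 95% interval of 313 to 68920. PRUPE_4G020200 had no count in LP and 79.2, 79.9 and 85.2 CPM in JB, at least 1031-fold lower in LP. PRUPE_4G020400 had 2 counts in LP and 29.7, 25.3 and 29.4 CPM in JB, a ratio of 534 (148 to 4411). These intervals cover counting error only, and sequence differences between the genotypes that keep reads from being counted were not tested.

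The 2-fold differences of 100 h were looked for at the other times, whose group means come from other libraries. All times share the filter on low counts and the estimate of spread of the common fit. Of the 673 higher genes, 454 were at least 2-fold higher in LP at 0 h as well, 67.5% of the 100 h list and 47.3% of the 0 h list (background 4.54%). At 200 h 448 were (66.6% and 46.5%, background 4.55%), and at 1000 h 420 were (62.4% and 47.7%, background 4.16%). Over all other chilling times, 57.2% to 67.6% of the higher list was found again, with backgrounds of 3.81% at 400 h, 4.28% at 600 h and 3.52% at 800 h.

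On the lower side the number found again varied with time. Of the 1681 lower genes, 725 were at least 2-fold lower in LP at 0 h, 43.1% of the 100 h list and 60.1% of the 0 h list (background 5.7%). At 200 h the number was 1272, 75.7% of the 100 h list and 58.6% of the 200 h list (background 10.2%). It was 1047 at 400 h (62.3%, background 8.21%), 878 at 600 h (52.2%, background 7.25%), 716 at 800 h (42.6%, background 6.58%) and 706 at 1000 h (42.0%, background 6.61%). The median difference of the list was -1.0 at 0 h, -2.03 at 200 h and -1.06 at 1000 h, against 0.00, 0.02 and 0.00 over all genes.

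At 7 of 7 chilling times, 257 of the higher genes (38.2%) and 350 of the lower genes (20.8%) kept their direction at 2-fold. At no other chilling time were 70 higher (10.4%) and 137 lower (8.15%) genes 2-fold apart in that direction. After 1 d at 22 °C, 323 higher (48.0%, background 3.12%) and 965 lower genes (57.4%, background 10.3%) were 2-fold apart in the same direction. At 20 d 390 higher (58.0%, background 16.1%) and 637 lower genes (37.9%, background 17.8%) were. Others were 2-fold apart the other way at 20 d. They were 114 of the 673 higher genes, near the background of 17.8% lower, and 430 of the 1681 lower genes (background 16.1% higher).

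How the first 100 h of chilling changed the genotype difference was tested directly, as the LP change from 0 to 100 h minus the JB change. It was more positive in LP for 1245 genes (5.88%) and more negative for 1494 (7.06%), and at least 2-fold so for 147 (0.694%) and 781 (3.69%). Without replicate 1 of every group the more positive genes numbered 588, and without replicate 2 they numbered 496. In the fit of the 12 libraries compared they numbered 794. The more negative genes numbered 949 without replicate 2. At 2-fold the lists held 93 more positive genes without replicate 1, and 629 to 810 more negative genes over all fits with libraries left out.

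The 781 genes with a 2-fold more negative change in LP are described by their own courses, with no test at 0 and 100 h because those libraries chose them. The JB median was 6.11 CPM before chilling and 9.04 CPM at 100 h, and the LP median was 7.92 and 2.77 CPM. In LP 492 of them fell at least 2-fold and 14 rose, and in JB 293 rose at least 2-fold and 91 fell. The median change was -1.55 in LP and 0.63 in JB, against 0.0 over all tested genes in each. The shares of all tested genes that rose or fell 2-fold in each genotype are not given here, so how common such changes were is not shown. The list thus holds falls in LP and rises in JB, and some genes showed both.

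The levels of these 781 genes after 100 h come from other libraries than those that set the change, though all share the estimate of spread. At 200 h 459 were at least 2-fold lower in LP (58.8%, background 10.2%) and 26 were higher. The median level then was 8.88 CPM in JB and 2.65 CPM in LP. From 200 to 1000 h, 465 fell at least 2-fold in JB (59.5%, background 10.3%), with a median change of -1.50. In LP 121 fell at least 2-fold over the same hours (15.5%, background 4.45%), with a median change of -0.28. At 1000 h the medians stood at 2.96 CPM in JB and 2.16 CPM in LP, and 151 genes were still at least 2-fold lower in LP (19.3%, background 6.61%). The JB median at 1000 h was near the 2.77 CPM of LP at 100 h, a value from libraries that chose the list.

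A smaller group crossed over. At 0 h 96 genes were at least 2-fold higher in LP and at 100 h they were at least 2-fold lower. They were 10% of the 960 higher genes of 0 h (background 7.94% lower at 100 h). Of the 1681 lower genes of 100 h they were 5.71% (background 4.54% higher at 0 h). Both shares were only a little above their backgrounds. Their median level in LP was 17.9 CPM at 0 h and 0.871 CPM at 100 h, and in JB it was 4.49 and 6.90 CPM. At 200 h 71 of the 96 were still at least 2-fold lower in LP (74.0%, background 10.2%), at 400 h 58 were (60.4%, background 8.21%) and at 600 h 35 were (36.5%, background 7.25%). The JB median was 3.94 CPM at 200 h, 1.02 CPM at 600 h and 0.844 CPM at 1000 h. From 200 to 1000 h, 81 of the 96 fell at least 2-fold in JB (84.4%, background 10.3%) and 23 did in LP (24.0%, background 4.45%). At 800 h 8 were 2-fold lower in LP (8.33%, near the background of 6.58%) and 26 were higher (27.1%, background 3.52%). At 1000 h 16 were lower (16.7%, background 6.61%) and 3 higher (3.13%, background 4.16%), with a median difference of 0.67 at 800 h and -0.67 at 1000 h.

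**Figure D3:**
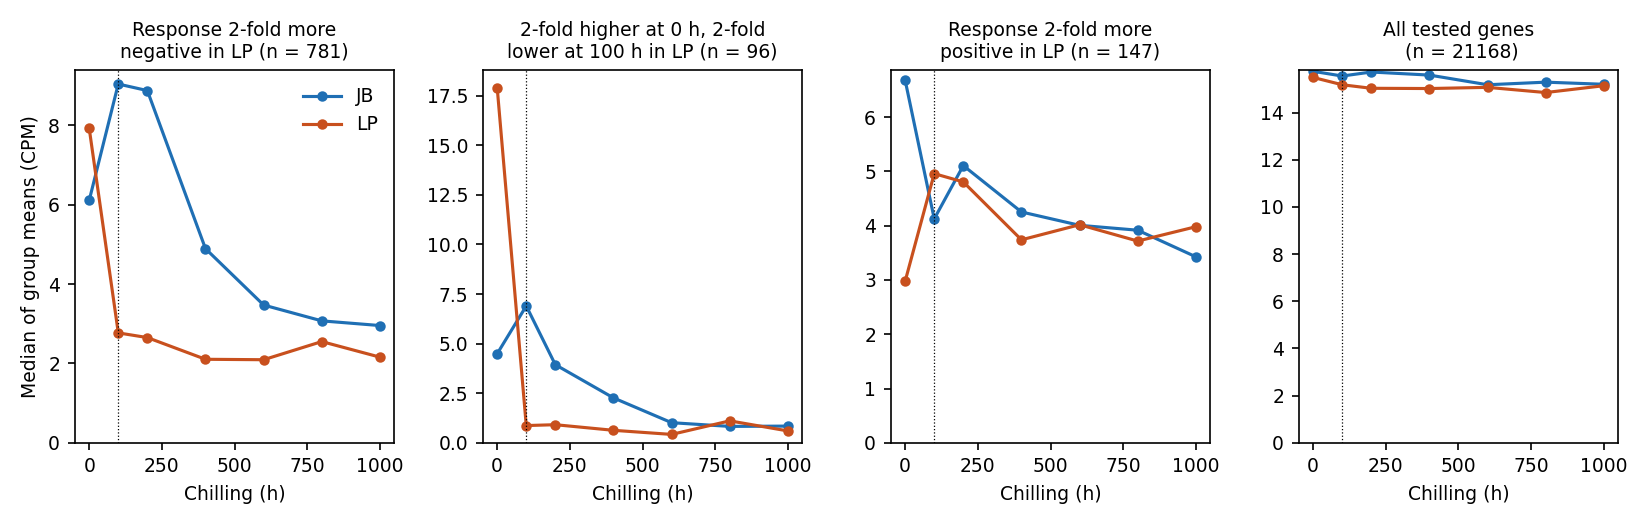
Lines join the median over genes of the group mean levels (CPM, axes from 0) at 7 chilling times for 3 lists and for all 21168 tested genes, with JB in blue, LP in orange and 100 h dotted. The first 3 lists were chosen by the 0 and 100 h libraries, so only the later times hold levels that did not set the choice, and there the JB median of the 781 genes falls towards the LP median.

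The 147 genes with a 2-fold more positive change in LP had a JB median of 6.68 CPM at 0 h and 4.13 CPM at 100 h, and an LP median of 2.98 and 4.96 CPM, in the libraries that chose them. At 200 h 25 of them were at least 2-fold higher in LP (17.0%, background 4.55%) and 45 at least 2-fold lower (30.6%, background 10.2%). Both shares were above their backgrounds, and 2-fold lower genes outnumbered 2-fold higher ones in the list, as they did among all genes.

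Single genes show both kinds of course. PRUPE_2G289500 held 7.55, 8.61 and 3.70 CPM in JB at 0 h and 21.4, 25.9 and 24.4 CPM at 100 h. In LP it held 98.0, 99.9 and 85.5 CPM at 0 h and 0.572, 1.51 and 1.13 CPM at 100 h. The order of the genotypes turned without overlap at either time, which the naming rule required at 100 h. The test of the changes gave -8.26 ± 0.28 (adjusted p = 1.4e-35). At 200 h the means were 4.69 ± 0.98 CPM in JB and 3.07 ± 0.94 CPM in LP (SD, n = 3).

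PRUPE_1G152100 fell in LP from 238 ± 3.4 CPM at 0 h to 2.61 ± 0.49 CPM at 100 h, and in JB it stood at 144 ± 26 and 176 ± 15 CPM. The test of the changes gave -6.83 ± 0.22 (adjusted p = 1.9e-38). In JB the level fell later, to 76.7 ± 3.1 CPM at 200 h, 11.5 ± 0.56 CPM at 400 h and then 3.47 ± 0.09 CPM at 600 h. The JB fall from 200 to 1000 h was -4.61 ± 0.18 (adjusted p = 1.0e-33), while the LP change over those hours of -0.85 ± 0.37 did not pass (adjusted p = 0.0651).

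Among the more positive changes, PRUPE_2G045300 rose in LP from 0.375 ± 0.13 to 3.31 ± 1.03 CPM and fell in JB from 289 ± 37 to 217 ± 27 CPM (3.55 ± 0.34, adjusted p = 1.8e-13). At 200 h LP was back at 1.09 ± 0.24 CPM. PRUPE_7G051800 rose in LP from 1.33 ± 0.11 to 7.16 ± 1.72 CPM and fell in JB from 63.4 ± 5.0 to 41.7 ± 6.8 CPM (2.99 ± 0.29, adjusted p = 3.7e-13). Both genes were lower in LP at 0, 100 and 200 h, so the more positive change made a large difference smaller and did not turn it.

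Differences of 100 h were also tested against the mean of the same difference at the other 6 chilling times. It was more positive at 100 h for 967 genes (4.57%) and more negative for 1496 (7.07%), and at least 2-fold so for 121 (0.572%) and 415 (1.96%). Many of the 415 were not lower in LP at 100 h alone. At 200 h 259 of them were at least 2-fold lower (62.4%, background 10.2%), and at 400 h 188 were (45.3%, background 8.21%). At 800 h 42 were lower (10.1%, background 6.58%) and 100 higher (24.1%, background 3.52%). The libraries of all these times took part in choosing the list. Of the more positive genes 265 were left without replicate 2 of every group, 624 without LP replicate 2 of 100 h and 589 without LP replicate 3 of 100 h. The more negative genes numbered 671 without replicate 2 of every group and 950 without JB replicate 2 of 100 h. At 2-fold the lists held 68 to 142 and 304 to 432 genes over the fits with libraries left out, with 68 without replicate 2 of every group.

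PRUPE_8G153100 was the most positive by the naming rule. At 100 h it held 4.55, 6.18 and 6.90 CPM in JB and 12.0, 13.2 and 9.72 CPM in LP (0.93 ± 0.26, adjusted p = 0.0025). These groups did not overlap, as the naming rule required. At 0 h PRUPE_8G153100 held 12.7 ± 3.4 CPM in JB and 4.06 ± 0.55 CPM in LP, and at 200 h 15.3 ± 0.42 and 3.87 ± 0.54 CPM. LP was lower in the mean at each of the other 6 chilling times, and the difference at 100 h stood 3.88 ± 0.31 above their mean (adjusted p = 8.9e-17). PRUPE_2G045300 followed with 3.07 ± 0.25 (adjusted p = 7.4e-16). Its mean takes in -9.64 at 800 h and -11.24 at 1000 h, where the LP libraries held 4 counts and 1 count in all.

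PRUPE_2G289500 and PRUPE_1G152100 were the most negative, at -4.55 ± 0.53 (adjusted p = 2.9e-10) and -4.16 ± 0.23 (adjusted p = 1.1e-23) against the mean of the other chilling times. Neither gene was lower in LP at 100 h only. The LP minus JB difference of PRUPE_1G152100 was -5.24 ± 0.19 at 200 h and -3.88 ± 0.27 at 400 h. That of PRUPE_2G289500 was -0.60 ± 0.22 at 200 h, -3.97 ± 0.45 at 400 h and -2.75 ± 0.62 at 600 h. The mean for PRUPE_2G289500 also takes in 3.83 ± 0.17 at 0 h and 5.03 ± 0.53 at 800 h. At 1000 h PRUPE_2G289500 was at 5 counts in JB and 3 in LP over the 3 libraries of each. It was also at 6 counts in LP at 400 h, 4 in LP at 600 h and 3 in JB at 800 h. Those differences thus rest on few counts. PRUPE_5G199500, among the highest at 100 h, was 1.12 ± 0.19 above the mean of its other chilling differences (adjusted p = 7.9e-06). Its JB level rose from 1.53 ± 0.07 CPM at 200 h to 6.30 ± 0.79 CPM at 1000 h (2.04 ± 0.17, adjusted p = 6.6e-17), and its LP level stood between 42.6 and 49.0 CPM at all 7 times.

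**Figure D4:**
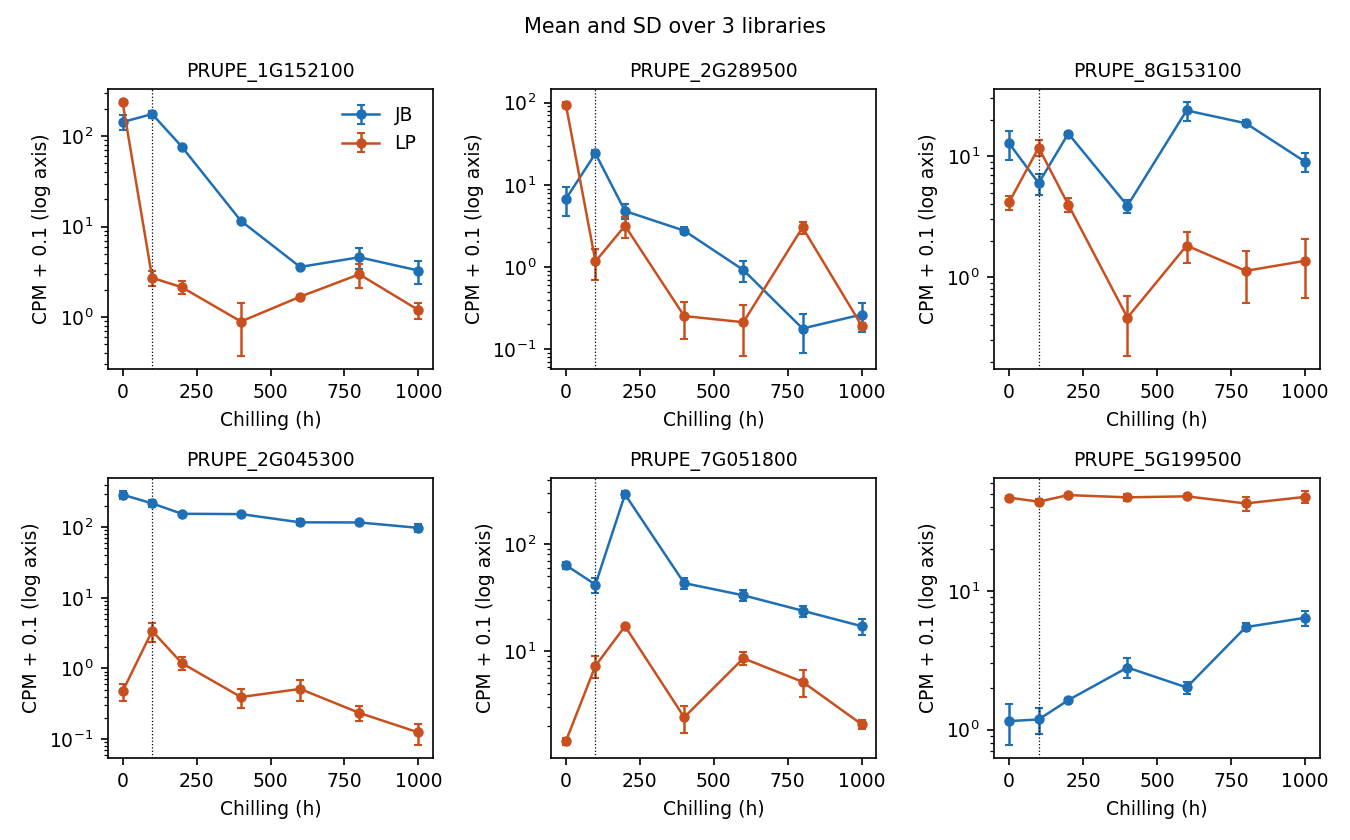
Points are group means and bars the SD over 3 libraries (CPM + 0.1, log axis) of 6 named genes over 1000 h of chilling, with JB in blue, LP in orange and 100 h dotted. PRUPE_1G152100, PRUPE_2G289500 and PRUPE_8G153100 change order between 0 and 100 h, PRUPE_1G152100 falls in LP by 100 h and in JB after it, and the other 3 keep their order.

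The 2-fold genes of 100 h were not evenly spread over the chromosomes, which were read from the identifiers. Chromosome 2 had 15.0% of its 2558 tested genes past 2-fold, with 132 higher in LP and 252 lower. The other 7 chromosomes had from 8.15%, on chromosome 5, to 12.2%, on chromosome 8. Chromosome 2, with 2558 of the 21168 tested genes, also held 18 of the 58 genes near absent in JB and 39 of the 137 near absent in LP. With no fold minimum the share was 45.4% on chromosome 2 and 39.5% on chromosome 5.

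Along the identifiers, 411 windows of 100 consecutive tested genes, each starting 50 genes after the last, held a median of 10 genes at least 2-fold apart. The fullest window, from PRUPE_2G046000 to PRUPE_2G059000, held 51, of which 33 were higher and 18 lower in LP. All 4 windows with more than 30 lay on chromosome 2, and the fullest window elsewhere held 28. At 0 h the same window held 53 genes 2-fold apart, against a median of 9 over all windows. At 20 d it held 60, against a median of 33, and 62 of the 411 windows held at least 40. It held 11 genes with a 2-fold different change from 0 to 100 h, against a median of 4 and a highest value of 14.

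Genes of the same direction also lay side by side. The next tested gene was in the same list for 94 of 669 higher genes (14.1%, background 3.18%) and for 324 of 1672 lower genes (19.4%, background 7.94%). Neighbouring genes can overlap or be copies of each other, and shared reads between neighbours were not tested.

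**Figure D5:**
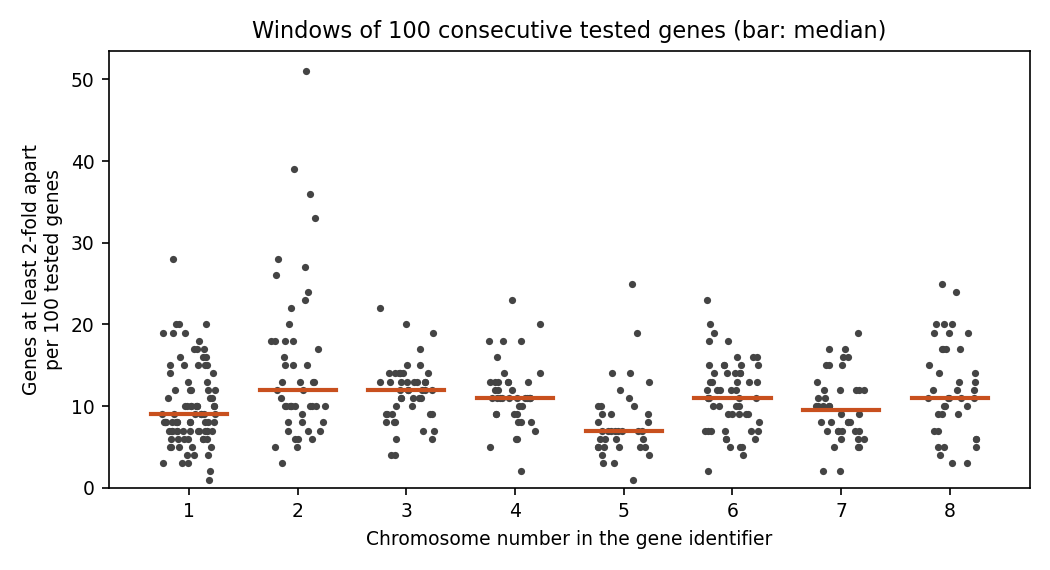
Each point is a window of 100 consecutive tested genes, placed by its chromosome (side-to-side spread for view only) and by how many of its genes were at least 2-fold apart between LP and JB at 100 h, and bars are chromosome medians. Of 411 windows, 4 hold more than 30 such genes and all 4 lie on chromosome 2, with 51 in the fullest.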

How the data were processed

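Per the labels' protocols, a Norgen kit was used to isolate floral bud RNA and a TruSeq Stranded mRNA kit to build the libraries. The submitters' processing notes list edgeR, STAR 2.6.0, Trimmomatic and FastQC 0.11.9. Not given in the sources used here are the genome build, the annotation, how reads were counted and whether strand was used, so antisense or overlapping genes may share reads. The authors deposited unnormalized whole-number counts of each gene for 84 libraries, and 0 columns were left unmatched to a sample.

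Counts were scaled by TMM and filtered with filterByExpr, which kept 21168 genes and left out 5711. They were fitted with edgeR 4.0.16 (glmQLFit and glmQLFTest, limma 3.58.1, R 4.3.3) in a single model of the 84 libraries, where each group had its own mean, leaving 56 residual degrees of freedom. Benjamini-Hochberg adjustment covered every tested gene, and calls were made at an adjusted p under 0.05. The common dispersion was 0.00587, a coefficient of variation of 7.66%. Tables and figures were made with Python 3.11.15 and pandas 2.3.3.

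Genes named were PRUPE_6G242400, the DAM genes and, per comparison, the 2 highest and 2 lowest fitted differences among called genes without overlap at 100 h and with at least 5 and 1 CPM in the higher and lower genotype. Near-absent genes were taken by level, with no minimum in the lower genotype. The identifiers share none with the RefSeq gene table used here, so of the gene lists considered only the DAM list could be filled, and the others were not analysed here. Members and lists were chosen with earlier results of these data known. The crossing genes and the changes from 200 to 1000 h were chosen after these data were seen.

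Alternatives were DESeq2 1.42.0, its size factors in edgeR, no low-count filter, only the groups compared, a replicate block, glmTreat, other count limits, and leaving out replicates or libraries.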

Additional observations from a re-analysis of the deposited data

Results flagged for a closer look

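Each result here is a difference between the genotypes in the same contrast, tested as a difference in edgeR's quasi-likelihood fit. The change from 0 to 100 h was more positive in LP for 1245 genes and more negative for 1494. The LP minus JB difference was more positive at 100 h than in the mean of the other chilling times for 967 genes and more negative for 1496.

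Of the named genes, PRUPE_6G242400 changed by 0.66 more in LP than in JB from 0 to 100 h (log2). All 3 LP libraries lay above all 3 JB libraries at 100 h, with an overlap at 0 h. Of all tested genes, 47.25% had no overlap at 100 h. For PRUPE_1G152100 the LP change minus the JB change was -6.83, and the difference at 100 h stood at -4.16 from the mean of the other chilling times. For PRUPE_2G289500 these values were -8.26 and -4.55. PRUPE_2G045300 gave 3.55 and 3.07. PRUPE_7G051800 gave 2.99 and 0.96. PRUPE_8G153100 gave 2.58 and 3.88. PRUPE_5G199500 gave 1.12 in the second test.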

How the results depend on the processing

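Of 579 repeats of the results under other settings, 546 kept direction and side of the threshold or, for counts, stayed within 1.5 times. Of 359 repeats for single genes, 2 lost the call (PRUPE_6G242400 in the change from 0 to 100 h, PRUPE_DAM4) and 1 gained it (PRUPE_DAM5), as given above. In 8 the sign turned without a call on either side. Without replicate 3 of every group and without JB replicate 3 of 100 h the values were 0.92 and 0.93 for PRUPE_DAM2, -0.24 and -0.22 for PRUPE_DAM3, and -0.06 and -0.01 for PRUPE_DAM6. Over all fits with replicates or libraries left out these 3 genes ran from -1.19 to 0.93, -0.24 to 0.21 and -0.06 to 0.26. PRUPE_DAM3 was also at -0.03 with DESeq2 and at -0.02 with a fit of the 6 libraries alone. The cause was not tested for any that moved. With glmTreat, where a gene must be shown to exceed 2-fold, 308 genes were higher and 926 lower. With a fit limited to the compared groups, 794 genes changed more positively in LP and 2 DAM genes were called.

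With replicates or libraries left out, which also leaves fewer samples, genes higher at 100 h numbered 2724 to 4479 and lower 2860 to 4634. At 2-fold they numbered 608 to 689 and 1462 to 1770. More positive changes numbered 496 to 1533 and more negative 949 to 1644, and at 2-fold 93 to 197 and 629 to 810. Against the other chilling times they numbered 265 to 1268 and 671 to 1727, and at 2-fold 68 to 142 and 304 to 432. DAM calls numbered 0 to 1, with 0 without replicate 1. Near-absent genes numbered 63 to 79 in JB and 163 to 178 in LP, above the 58 and 137 with all libraries. The rule sums counts over the libraries of a genotype, so with fewer libraries fewer counts are summed. How far this set the rise was not tested. With no count allowed, near-absent genes numbered 35 and 61, and with at most 10 counts 94 and 257. With no fold minimum, chromosome 2 had 45.43% and chromosome 5 had 39.52% of tested genes called.

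With the replicate number as a block, 4586 genes were higher and 4193 lower, and the block changed no call of a named gene. Deviations of same-numbered libraries correlated at -0.32, 0.01 and 0.12, and no LP library correlated best with its own number. With 3 libraries per group, these values cannot settle whether equal numbers mark paired samples. Leaving out JB 12 d replicate 3 and LP 28 d replicate 3, the libraries least like their replicates, was added after seeing the data and moved no count by over 1.5 times. The smallest JB library, with 8021919 counts, limits what can be seen of weakly expressed genes.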
